A study of Mus musculus with 28 samples.

Results

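Lung metastases of a mouse mammary carcinoma (LungMets, 9 samples) were compared with normal lung parenchyma (NL, 3 samples), gene by gene, to describe what the metastatic lung gained and lost. The 2 groups were taken by the source name of the sample labels and made up 12 of the 28 samples of the series. The others were 11 primary tumors (PT), 3 normal mammary glands (NMG) and 2 samples of the cell line in culture, 1 a monolayer and 1 of 3D spheres. RNA of whole tissue was read on Affymetrix arrays, and every level below is a log2 signal, so that a difference of 1 is a 2-fold change.

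All tumors came from JygMC(A), a line of mouse mammary carcinoma that forms lung metastases spontaneously. Female Balb/c athymic nude mice of 8 weeks received 50000 cells in the fourth mammary gland, subcutaneously per the labels and into the fat pad per the methods, where the cells carried a GFP and luciferase reporter. LungMets were nodules collected at day 50 and PT were dissected at day 30 per the labels, or at 20 to 30 days per the methods. NL and NMG came from healthy nude mice that received no cells, 3 mice of 6 to 8 weeks per the methods. Nude mice lack a working thymus and so most T cells, while B, NK and myeloid cells remain. The methods give these mice, and 1 or 2 fragments of tumor and metastasis from 8 mice, for tissue embedded for laser microdissection. Whether the arrays used the same mice is not stated, and the labels do not give the animal of a sample. Some LungMets may therefore share a mouse, and the p-values measure the spread between samples. The metastases rest on 1 cell line. NL differed from LungMets also in the absence of an earlier tumor, in the date label of the arrays and, per the methods, in age.

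Lung markers were high in NL and the Y-linked genes, a reference for low signal in female mice, lay between 2.47 and 3.74. The library labelled LungMets 9 stood apart. Its mean over the marker list of alveolar type 1 cells was 5.42, against 7.77 to 9.70 in the other 8 LungMets and 4.87 to 5.75 in 10 of the 11 PT. PT 5 stood apart the other way, at 8.71, and its values correlated best with those of LungMets 5, at r = 0.995, while LungMets 9 correlated best with PT 2, at r = 0.989. Both libraries thus read against their labels, and whether the labels were exchanged was not tested. The names used here are those of the labels. LungMets 7 had the lowest mean of the mitosis list, 7.53, and the highest of the platelet list, 7.06. Of 378 pairs of arrays 0 held identical values. Results that rest on LungMets 9 or PT 5 are given with both and without both. In whole tissue, fewer cells of a type and less RNA per cell cannot be told apart.

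The lung wall is built from flat alveolar type 1 cells, through which gas passes, and alveolar type 2 cells, which make surfactant. Both lie on a dense bed of capillary endothelium held by specialised fibroblasts, and the airways are lined by club and ciliated cells. A metastatic nodule places dividing carcinoma cells, with blood vessels, macrophages and matrix of its own, into or beside this tissue. RNA of a nodule can therefore come from tumor, from host cells drawn to it and from lung.

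Of 18194 genes, 2962 (16.3%) were called different, at an adjusted p below 0.05 in limma and a fold above 2. Gains, the genes higher in LungMets, numbered 1219 (6.7% of all genes) and losses, the genes lower in LungMets, 1743 (9.58%). The median difference over all genes was 0.05. Gains had a median difference of 1.51 and losses of -1.58, and 123 gains but 76 losses passed 8-fold. Of the gains, 352 had a mean below 5 in NL, and 368 losses had a mean below 5 in LungMets. The levels of the groups did not overlap for 1120 gains and 1595 losses. Over all genes, 16.7% lay higher in every LungMets than in every NL and 17.4% lay lower, so most genes without overlap were neither gains nor losses. Without LungMets 9 and PT 5 the counts were 1205 gains and 1725 losses, of which 1166 and 1670 were the same genes.

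**Figure D1:**
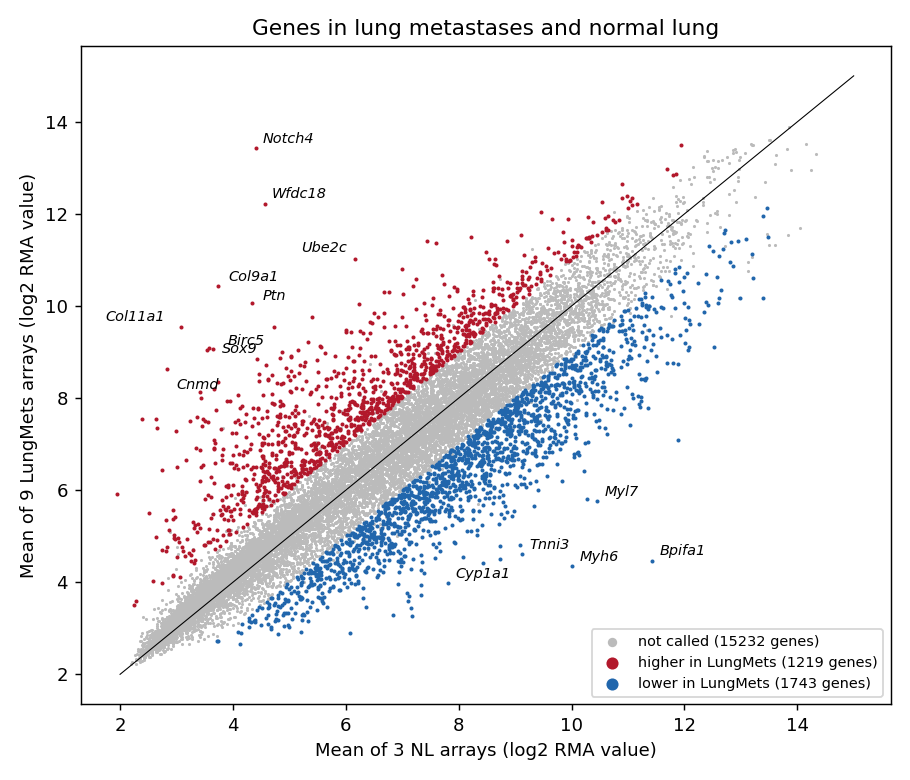
Mean log2 signal of each gene in 3 NL (horizontal axis) and in 9 LungMets (vertical axis), with the 1219 gains and 1743 losses in colour and the other genes in grey. Gains lie above the diagonal down to the lowest levels of NL, and losses lie below it.

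The largest rise was that of Notch4, a Notch receptor. It read 4.28, 4.49 and 4.44 in NL and 13.11 to 13.69 in LungMets, with a median of 13.55. The groups lay far apart, PT read 13.19 to 13.71, and the cell line read 13.30 as a monolayer and 13.16 as spheres. The difference was 9.03 ± 0.17 (SE), at an adjusted p of 5.09e-23 in limma. Notch4 has 3 probe sets on the array, and they did not read alike. The other 2 were 1.59 and 1.42 higher in LungMets than in NL, at adjusted p of 0.0978 and 0.0578 in limma, and neither was called. The first of them had a mean of 8.75 in NL and 10.35 in LungMets, the second 4.46 and 5.88. Notch4 was thus not low in NL on every probe set. The rise therefore holds for the probe set with the highest signal, not for every stretch of the transcript that was probed.

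Sox9, a transcription factor of cartilage and of several stem and progenitor cells, was even across LungMets. It read 3.92, 3.43 and 3.56 in NL and 8.74 to 9.33 in LungMets, with a median of 9.04. The difference was 5.42 ± 0.22 (SE), at an adjusted p of 3.50e-15 in limma. Wfdc18, a secreted protein with a whey acidic protein domain, rose by 7.66 ± 1.09 (SE), from 5.48, 4.19 and 4.03 in NL to between 9.41 and 14.49. Its levels spread widely within LungMets, and its mean in NMG was 11.96. Foxd1, a forkhead factor, rose from 2.68, 2.58 and 2.64 to between 5.63 and 8.79. Tfap2c, a transcription factor of the mammary and trophoblast lineages, rose from 2.48, 2.17 and 2.54 to between 5.17 and 10.22. All of these groups were free of overlap with NL. This was fixed in advance, since these genes and Notch4 were picked among calls without overlap.

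Genes of cell division rose together. Of 28 measured genes of the mitosis list 27 rose, with a median difference of 3.42, and of 26 genes of DNA replication 25 rose, with a median of 2.11. Ube2c, which marks mitotic proteins for destruction, read 6.57, 6.48 and 5.45 in NL and 9.79 to 12.03 in LungMets, with a median of 11.17. Its difference was 4.86 ± 0.44 (SE), at an adjusted p of 4.75e-09 in limma. Cdk1, the kinase that drives entry into mitosis, read 5.92, 5.58 and 4.72 in NL and 8.89 to 10.14 in LungMets. Neither gene overlapped between the groups, which the naming rule required of Ube2c, and LungMets 7 was the lowest LungMets in both. Birc5, a part of the complex that checks chromosome attachment, rose by 4.81 ± 0.32 (SE), and Kif20a, a motor of cytokinesis, by 4.58 ± 0.37 (SE). Foxm1, the regulator of many genes of this list, differed by 0.79 at an adjusted p of 7.98e-06 in limma and so missed the fold of 2. Of its 4 probe sets 2 were not called, the one used here among them, and the others were called.

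Among replication genes, Tk1, the thymidine kinase of S phase, rose from 5.02, 4.97 and 4.08 to between 7.31 and 9.06. Rrm2, the regulated subunit of ribonucleotide reductase, rose by 3.22 ± 0.24 (SE). Mcm6, a subunit of the replicative helicase, rose from 6.79, 6.41 and 6.18 to between 8.79 and 9.95, a difference of 3.17 ± 0.26 (SE) at an adjusted p of 9.21e-10 in limma. The levels of Tk1 and Mcm6 in LungMets lay above every NL sample.

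Genes that rise together in mitosis often share short promoter elements, the cell cycle homology element TTTGAA and the CCAAT box, and replication genes often carry E2F sites such as TTTGGCGC and TTTCCCGC. RefSeq promoters of GRCm38.p6, with 250 bases before and 50 after each start, were searched for these letters on both strands. TTTGAA stood in 21 of 25 windows (84%) of the 23 mitosis genes matched, in 19.2% of the windows of gains, in 11.4% of those of losses and in 17.9% of all windows. CCAAT stood in 76% of the mitosis windows and 37.4% of all. In DNA replication, TTTGGCGC stood in 5 of 24 windows (20.8%) and TTTCCCGC in 4 (16.7%), against 0.514% and 1.07% of all windows, and neither stood in a mitosis window. These are matches of letters in a fixed window and no measure of binding. The promoters of 6 of these genes are shown from 150 bases before to 50 after the start, 5′ to 3′ on the strand of the gene, because they show both kinds of element. Capitals mark TTTGAA and CCAAT, or their reverse complements TTCAAA and ATTGG, in the first 4 (Ube2c at chr2:164769779-164769978, plus strand; Cdk1 at chr10:69352863-69353062, minus strand; Cdc20 at chr4:118437294-118437493, minus strand; Top2a at chr11:99024140-99024339, minus strand). In the last 2 they mark TTTGGCGC and TTTCCCGC or their reverse complements (Mcm6 at chr1:128359656-128359855, minus strand; Cdc6 at chr11:98908001-98908200, plus strand).
Ube2c: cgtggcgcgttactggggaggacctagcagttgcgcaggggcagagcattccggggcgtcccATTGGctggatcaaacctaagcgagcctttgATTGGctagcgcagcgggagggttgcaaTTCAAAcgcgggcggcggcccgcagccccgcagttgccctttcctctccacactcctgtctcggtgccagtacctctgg
Cdk1: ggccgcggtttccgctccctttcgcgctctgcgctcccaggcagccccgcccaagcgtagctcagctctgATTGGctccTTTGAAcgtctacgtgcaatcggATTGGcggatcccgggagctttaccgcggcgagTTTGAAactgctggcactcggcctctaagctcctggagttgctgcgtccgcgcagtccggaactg
Cdc20: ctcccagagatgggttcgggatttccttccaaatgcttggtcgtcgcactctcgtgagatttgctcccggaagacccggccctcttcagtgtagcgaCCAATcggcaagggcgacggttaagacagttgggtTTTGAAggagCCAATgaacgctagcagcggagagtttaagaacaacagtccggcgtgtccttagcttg
Top2a: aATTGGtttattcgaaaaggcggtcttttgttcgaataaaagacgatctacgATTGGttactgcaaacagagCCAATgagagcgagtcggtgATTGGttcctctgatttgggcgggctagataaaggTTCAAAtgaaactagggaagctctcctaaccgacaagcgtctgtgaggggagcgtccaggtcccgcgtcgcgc
Mcm6: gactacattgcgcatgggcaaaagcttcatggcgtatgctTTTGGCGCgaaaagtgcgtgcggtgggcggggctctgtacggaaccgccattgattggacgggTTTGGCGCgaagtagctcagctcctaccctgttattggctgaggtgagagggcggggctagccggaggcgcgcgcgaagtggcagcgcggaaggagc
Cdc6: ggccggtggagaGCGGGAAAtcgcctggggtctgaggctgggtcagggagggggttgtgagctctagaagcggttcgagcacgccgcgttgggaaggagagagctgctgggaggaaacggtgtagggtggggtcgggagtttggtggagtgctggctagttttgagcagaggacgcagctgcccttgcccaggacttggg

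Of these, Cdc20, which activates the ubiquitin ligase that ends mitosis, read 7.50, 7.57 and 7.25 in NL and 10.69 to 11.73 in LungMets. Top2a, the topoisomerase that untangles chromosomes, read 7.56, 7.03 and 6.39 in NL and 9.84 to 11.26 in LungMets. Both ranges of LungMets lay above all 3 NL.

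Genes of growth metabolism rose with them. Of 19 genes of ribosome biogenesis 16 rose, with a median difference of 1.45, and all 16 were also high in PT and in both cell line samples. Dkc1, which modifies ribosomal RNA, read 7.78, 8.02 and 8.12 in NL and 9.41 to 10.88 in LungMets. Its difference was 2.39 ± 0.23 (SE), at an adjusted p of 9.01e-09 in limma. Nop56, a core protein of the small nucleolar particles, rose by 2.16 ± 0.22 (SE). Of 18 genes of amino acid transport and synthesis 10 rose and 1 fell, with a median of 1.22. Mthfd2, a mitochondrial enzyme of the folate cycle, read 5.33, 5.00 and 4.74 in NL and 8.59 to 9.51 in LungMets. Psat1, of serine synthesis, rose by 2.97 ± 0.18 (SE), and Slc7a5, a carrier of large amino acids, by 2.73 ± 0.25 (SE). The gene that fell was Slc1a5, a glutamine carrier, and of its 2 probe sets 1 was not called.

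Glycolysis and hypoxia genes were divided. Of 22 genes 9 rose, 1 fell and 12 were not called, with a median of 0.61. Egln3, an oxygen sensor that hypoxia induces, read 4.94, 4.68 and 5.33 in NL and 7.19 to 9.63 in LungMets. Slc2a1, a glucose carrier, and Pgk1, a glycolytic enzyme, each rose by 1.95, with SE of 0.26 and 0.14. The gene that fell was Vegfa, the growth factor of blood vessels, at 10.01, 10.08 and 10.19 in NL and 7.75 to 9.69 in LungMets. Lung tissue is known for a high level of Vegfa, and here the difference was -1.48 at an adjusted p of 0.0113 in limma. Of 2 probe sets of Vegfa 1 was not called.

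Part of a cartilage matrix list rose. Of 18 genes 8 rose and none fell, with a median of 0.76. Col9a1, a chain of the collagen that coats cartilage fibrils, read 4.57, 3.24 and 3.39 in NL and 6.67 to 12.43 in LungMets, with a median of 11.13. The difference was 6.70 ± 0.87 (SE), at an adjusted p of 9.47e-07 in limma, and the lowest LungMets was number 7. Col11a1, a chain that starts fibril growth, rose by 6.47 ± 0.58 (SE), from 3.65, 2.77 and 2.83 to between 7.20 and 11.41. Cnmd, chondromodulin, which is known to hold back vessels in cartilage, rose by 5.79 ± 1.37 (SE), from 2.72, 2.76 and 3.04 to between 5.16 and 11.77. In each of these 3 genes the lowest LungMets lay above the highest NL, as the rule that named them required. Snorc, a proteoglycan of cartilage, rose by 5.50 ± 0.67 (SE). Other cartilage genes stayed near their level in NL. Acan, the main cartilage proteoglycan, differed by -0.09 and Matn1 by 0.02, and neither was called. In the stromal matrix list 1 of 21 genes was called, Tnc, at 1.81 ± 0.64 (SE), and 0 without NL 2 or without NL 3. The median of that list was 0.07, and -0.03 without LungMets 9 and PT 5.

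**Figure D2:**
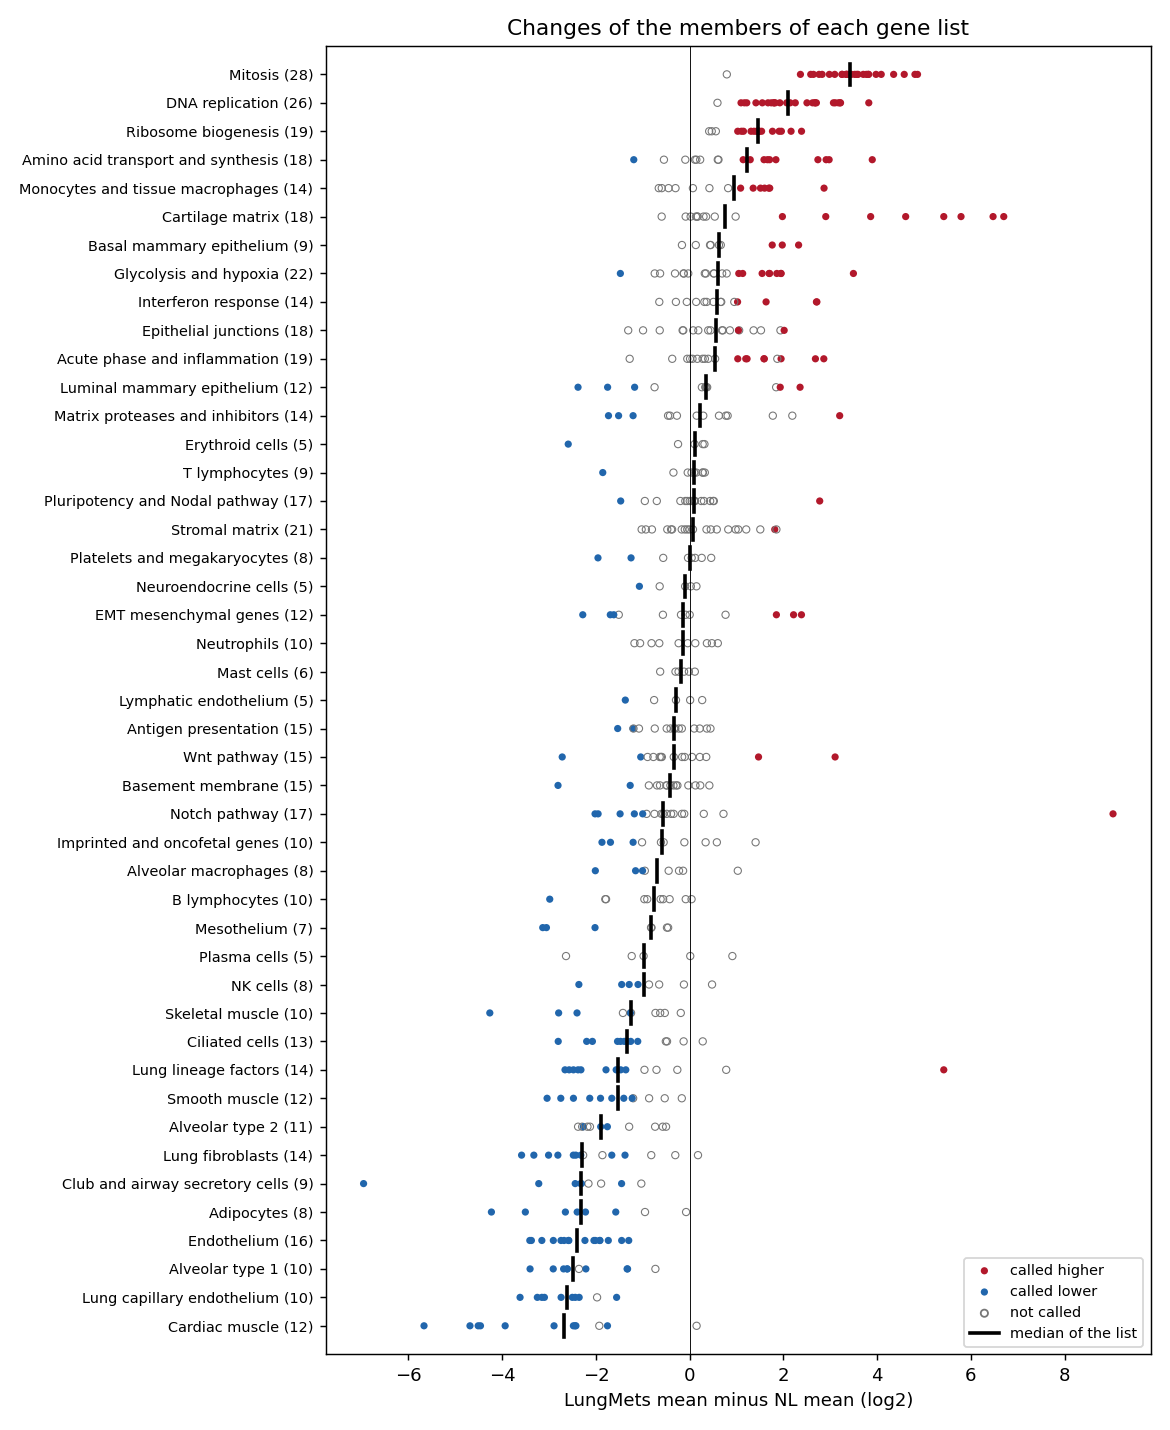
Difference between LungMets and NL in log2 units (horizontal axis) for each measured gene of 45 lists, sorted by their median, with calls in colour. Mitosis lies at one end with 27 of 28 members called higher, and cardiac muscle and lung capillary endothelium lie at the other.

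Genes of monocytes and tissue macrophages rose in part, 7 of 14 and none the other way, with a median difference of 0.95. Ms4a7, a membrane protein of tissue macrophages, read 6.48, 6.12 and 5.50 in NL and 8.20 to 9.68 in LungMets, with a median of 9.02. Its difference was 2.87 ± 0.38 (SE), at an adjusted p of 1.25e-06 in limma. The 3 chains of complement C1q, made mainly by macrophages, rose alike, C1qa by 1.60, C1qb by 1.69 and C1qc by 1.71. C1qa read 9.23, 8.85 and 8.65 in NL and 10.25 to 10.98 in LungMets, while the cell line read 4.99 and 4.66. Csf1r, a receptor of monocytes and macrophages, differed by -0.45 and was not called, and Mrc1 by -0.66. The macrophages of the airspace read otherwise. Of 8 alveolar macrophage genes 3 fell, Fabp1, Siglecf and Pparg, and none rose. Siglecf was not called without NL 2, and Pparg fell under the fold of 2 without NL 1, LungMets 3, LungMets 5 or LungMets 8. Without LungMets 3, LungMets 5, LungMets 6 or LungMets 8, 1 gene of the list was called higher.

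Inflammatory genes were higher in a share of the list, 8 of 19, with a median of 0.54. Saa3, a serum amyloid made in inflamed tissue, read 6.72, 6.68 and 6.63 in NL and 6.93 to 11.49 in LungMets, with a median of 9.72. LungMets 9 was the lowest, at 6.93, and the difference was 2.86 ± 0.68 (SE) with it and 3.19 without it and PT 5. Lcn2, an iron-binding defence protein, read 8.60, 8.48 and 8.38 in NL and 8.86 to 12.08 in LungMets, and its call ended when any 1 NL was left out, at adjusted p of 0.0649 to 0.0793 in limma. Il6 rose by 1.95 ± 0.29 (SE), though its level stayed low, at 3.82 to 5.66. Of 14 interferon response genes 4 rose, Cxcl10, Oas1a, Mx1 and Mx2, with a median of 0.58. Cxcl10, a chemokine for lymphocytes, read 5.39, 5.74 and 5.30 in NL and 7.16 to 9.17 in LungMets. The others of that list, such as Ifit1 at 0.36 and Irf7 at 0.31, were not called, and Mx2 fell under the fold of 2 without LungMets 9 and PT 5.

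Mammary markers were mixed. Among basal mammary genes 3 of 9 rose and none fell. Krt14, a basal keratin, read 4.10, 4.25 and 5.72 in NL and 5.69 to 10.35 in LungMets, so that the lowest LungMets lay within the range of NL. LungMets 9 was the highest, and the difference was 2.32 with it and 1.91 without it and PT 5. Itgb4, the integrin of hemidesmosomes, rose by 1.97 ± 0.20 (SE). Among 12 luminal genes the milk caseins Csn2 and Csn3 rose and 3 fell, among them Foxa1 and Gata3, factors of the luminal lineage. Neither casein was called when any 1 NL was left out. Foxa1, which lung epithelium also uses, read 9.44, 9.54 and 9.47 in NL and 5.62 to 7.94 in LungMets.

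The remaining signalling lists held few calls, to be read beside the 6.7% of all genes called higher and the 9.58% called lower. Of 17 Notch pathway genes Notch4 rose and 5 fell, Mfng, Dll4, Dll1, Hes1 and Notch3. The 5 became 3 without NL 1. Dll4, a Notch ligand of endothelial tips, read 8.21, 8.05 and 8.14 in NL and 5.56 to 6.86 in LungMets, with no overlap. Of 15 Wnt genes Nkd2 and Wnt10a rose, and Nkd1 and Axin2 fell. Without LungMets 9 and PT 5 neither Wnt10a nor Axin2 was called. Of 17 pluripotency genes Tert, the catalytic subunit of telomerase, rose by 2.77 ± 0.64 (SE), and Sox2, which airway epithelium also uses, fell by 1.47 and was not called without NL 3. Of 12 mesenchymal genes of the epithelial-mesenchymal transition 3 rose, S100a4, Twist1 and Cdh2, and 3 fell. S100a4 read 8.93 to 12.98 in LungMets and 9.05, 8.39 and 8.50 in NL, which overlap, and it was not called without LungMets 9 and PT 5 or without any 1 NL. Cdh2 was not called without LungMets 9 or without NL 1. Of 18 genes of epithelial junctions 2 rose, Pkp1 and Pkp3, and the latter was not called without these libraries. Timp1, an inhibitor of matrix proteases, rose by 3.20 ± 0.69 (SE), while Timp2, Timp3 and Mmp2 fell. Of these 3, only Timp3 was called without NL 1 and without NL 3.

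**Figure D3:**
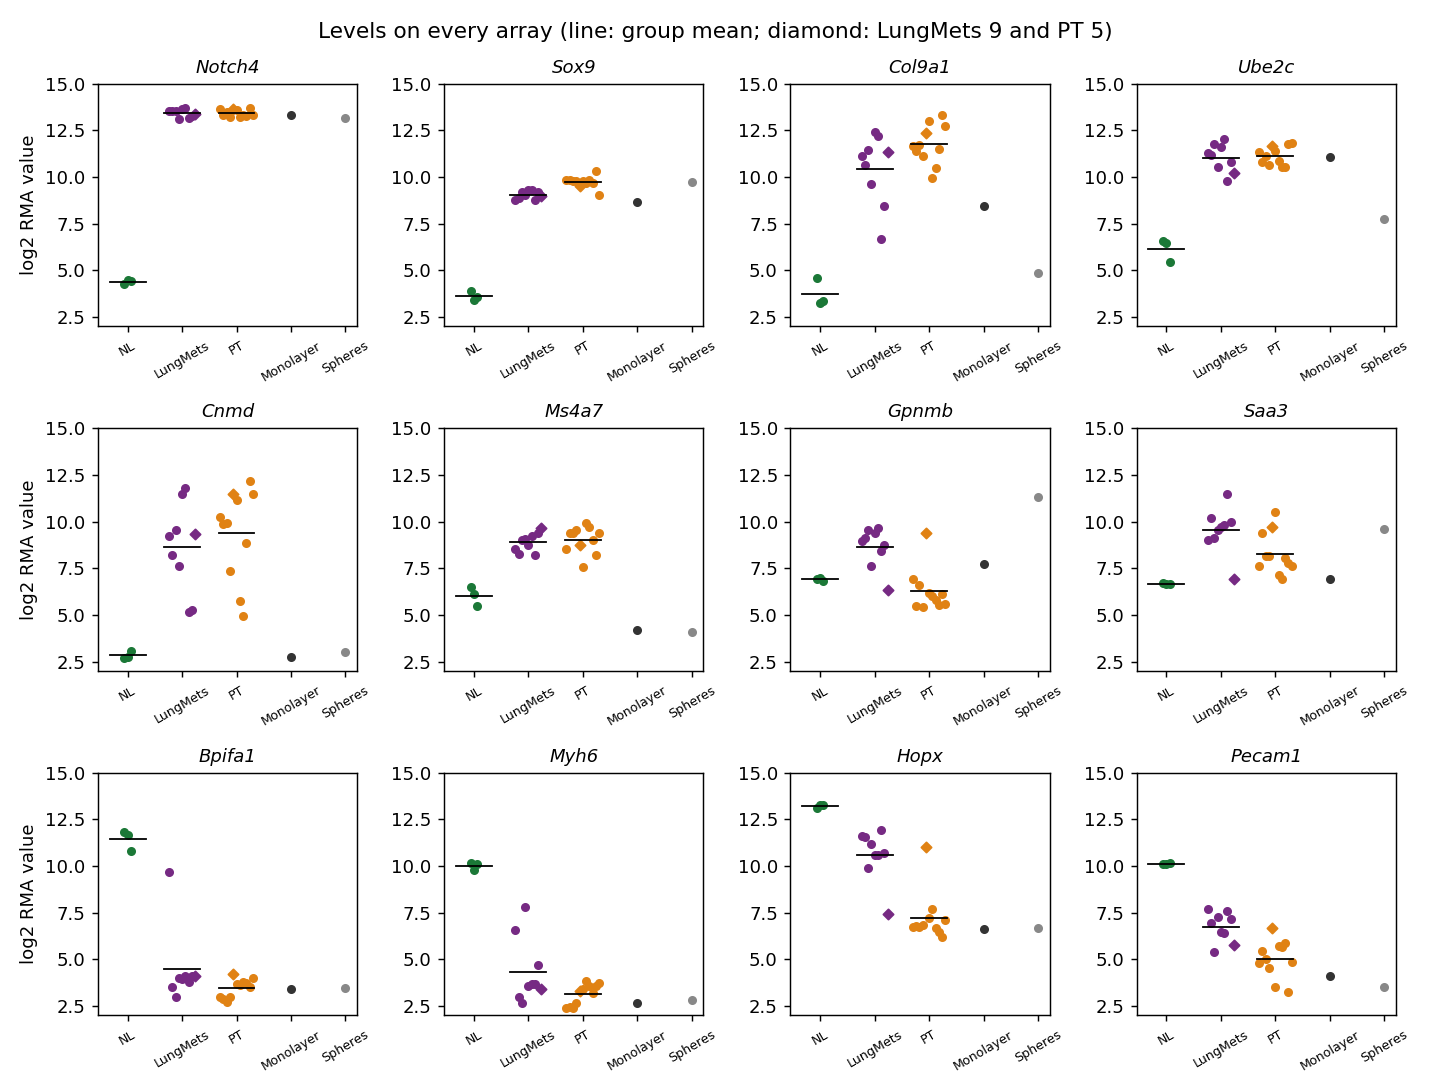
Log2 signal of 12 genes (1 panel each) in every NL, LungMets, PT and cell line array, with a line at the mean of each group and diamonds for LungMets 9 and PT 5. Notch4 and Sox9 lie high in LungMets, PT and both cell line samples. Cnmd and Ms4a7 lie higher in LungMets and PT than in NL and are low in the cell line. Hopx and Pecam1 are lower in LungMets than in NL and lower still in most PT.

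Most gains were shared with the primary tumors. PT against NL gave 1786 genes higher (9.82% of all) and 2376 lower (13.1%), and 1181 of the 1219 gains (96.9%) were among those higher. The 1181 are 66.1% of the genes higher in PT. The NL samples serve in both comparisons, so a low value of NL enters both. A gene was taken as high in a cell line sample when it read more than 1 log2 unit above the mean of NL and above every NL sample. The cell line has 1 array per condition, so no test was possible. Of the gains, 743 (61.0%) were high in both cell line samples, against 8.28% of all genes and 0 of the losses. Joined, 738 gains (60.5%) were high in PT and in both cell line samples, 443 in PT and not in both, 5 in both cell line samples and not in PT, and 33 in neither.

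The first class held Notch4, Wfdc18, Col9a1, Col11a1, Snorc and Sox9 at its head, and 19 of the 27 mitosis gains. Wfdc18 read 6.82 in the monolayer and 5.94 in the spheres, beside a LungMets mean of 12.22. In the same order, Snorc read 5.28 and 6.19 beside 9.08, and Col11a1 9.96 and 5.00 beside 9.55. Col9a1 read 8.42 and 4.89 beside 10.43, the latter just above the highest NL, 4.57. Notch4 and Sox9 read near their LungMets level in both cell line samples, Sox9 at 8.68 and 9.73. The monolayer was high for 974 gains and the spheres for 787. Genes of cell division were among those that differed between them. The mean of the mitosis list was 9.46 in the monolayer and 6.37 in the spheres, against 4.83 to 5.43 in NL and 7.53 to 9.08 in LungMets. For Mki67, a marker of cycling cells, the monolayer read 10.53, the spheres 6.80 and NL 7.28, 6.78 and 6.27. Such a gene is counted with PT alone, since the spheres lay within the range of NL. Gpnmb, a glycoprotein of macrophages and of some carcinomas, ran the other way, at 7.73 in the monolayer and 11.32 in the spheres.

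**Figure D4:**
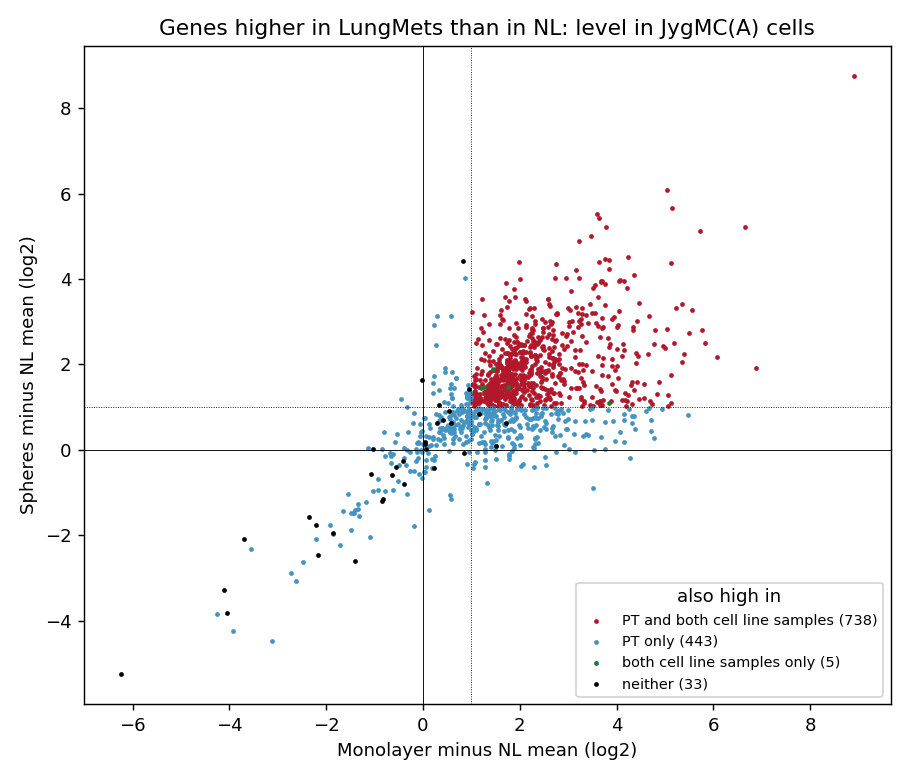
Level of each of the 1219 gains in the monolayer (horizontal axis) and in the spheres (vertical axis), as the difference from the mean of NL in log2 units, coloured by class. Gains high in PT and both cell line samples lie above 1 on both axes. Those counted with PT alone lie, on at least 1 axis, at 1 or less or no higher than the highest NL.

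Gains that the cell line lacked formed a smaller set. Both cell line samples read at or below the highest NL for 93 gains, and 75 of these were called higher in PT. The largest were Cnmd, Ptn and Ptprz1. Ptn, the growth factor pleiotrophin, read 3.62, 4.47 and 4.90 in NL, 6.44 to 12.09 in LungMets and 8.27 to 12.88 in PT, but 3.02 and 2.79 in the cell line. Ptprz1, a receptor of pleiotrophin, read 4.52, 4.36 and 4.88 in NL, 6.57 to 11.01 in LungMets, and 2.93 and 3.15 in the cell line. Ligand and receptor were thus both higher in LungMets than in every NL sample, which the naming rule required of Ptn. Rbp7, a retinol-binding protein, and Ms4a7 followed the same order. The mean of NMG was also over 1 unit above NL for 43 of the 75, Ptn among them at 10.48, while Ptprz1 read 2.81 and Cnmd 4.59 there. The 5 gains high in the cell line but not called in PT were Cd44, Btbd11, Plscr1, Rhou and U90926. Cd44, a hyaluronan receptor, read 9.01, 9.65 and 9.21 in NL, 10.05 to 10.80 in LungMets and 10.56 and 10.77 in the cell line, and in PT it was 0.92 above NL, just under the fold of 2.

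LungMets and PT were also compared directly. Over all genes 510 (2.8%) were higher and 54 (0.297%) lower in LungMets, and the 54 became 86 without LungMets 9, 82 without PT 5 and 116 without both. Among the gains 2 were higher than PT, 18 lower and 1199 not called, and both comparisons use the same LungMets samples. The 2 were Gpnmb and Esm1. Gpnmb read 6.94, 6.98 and 6.79 in NL, 6.32 to 9.65 in LungMets with a median of 8.95, and 5.41 to 9.40 in PT with a median of 5.99. LungMets 9 was the lowest LungMets and lay below NL. Against NL the difference was 1.74 ± 0.64 (SE) with it and 2.03 without it and PT 5, and against PT it was 2.37 ± 0.43 (SE) and 2.97. Esm1, endocan, a product of activated endothelium, was 1.19 ± 0.45 (SE) above NL and 1.20 ± 0.30 (SE) above PT, and its levels in LungMets, 6.62 to 9.23, overlapped both groups. Against NL, the call of Gpnmb ended without any 1 NL, at adjusted p of up to 0.0863 in limma, and that of Esm1 without NL 1, NL 2, LungMets 6 or LungMets 8, at up to 0.172. The 2 gains above PT became 0 without NL 1, 0 without NL 2, 1 without NL 3, 4 without LungMets 5 and 5 without LungMets 9, and 17 when arrays were weighted by their quality.

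Without LungMets 9 and PT 5, 7 gains were higher than PT, Muc4, Retnla, Gpnmb, Saa3, Slco1a5, Esm1 and Serpina3n. Retnla, a protein of alternatively activated macrophages and airway cells, then lay 2.31 above NL and 4.56 above PT, at adjusted p of 9.92e-05 and 4.87e-11 in limma. With all samples it was 1.87 above NL at an adjusted p of 0.0888. Muc4, a membrane mucin, ranged from 3.96 to 10.46 in LungMets against 4.01, 3.88 and 3.60 in NL.

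The 18 gains lower than PT became 30 without PT 5, 35 without it and LungMets 9, and 38 with array weights. The 18 included 5 cartilage genes, Col2a1, Col9a2, Col9a3, Col11a1 and Col11a2, and also the forkhead factors Foxc1 and Foxd1 and the matrix protein Tnc. Col2a1, the main collagen of cartilage, read 3.63, 3.97 and 3.62 in NL, 6.71 to 11.99 in LungMets and 7.57 to 12.41 in PT. It was 4.61 ± 0.88 (SE) above NL and 2.76 below PT, at an adjusted p of 0.00236 in limma. LungMets 9 was the highest LungMets for Col2a1. Its cartilage list mean was 7.21, within the 6.50 to 7.46 of PT, while the 5.33 to 6.49 of the other 8 LungMets lay below every PT.

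Losses covered genes of lung cell types and of other tissues. Among 16 genes of endothelium all 16 fell, with a median difference of -2.41, and of 10 genes of lung capillary endothelium 9 fell, with a median of -2.62. Pecam1, an adhesion molecule of endothelial junctions, read 10.12, 10.13 and 10.15 in NL and 5.40 to 7.71 in LungMets, with a median of 6.95. The difference was -3.38 ± 0.53 (SE), at an adjusted p of 1.19e-05 in limma. Cldn5, the claudin of endothelial tight junctions, read 12.54, 12.67 and 12.36 in NL and 7.42 to 10.77 in LungMets. Car4, a carbonic anhydrase on the surface of lung capillaries, read 10.40, 10.67 and 10.71 in NL and 4.15 to 9.20 in LungMets. In all 3 genes every LungMets lay below every NL, and LungMets 7 was the highest for Cldn5 and Car4. Without LungMets 9 and PT 5 the same 16 of 16 endothelial genes and 10 of 10 capillary genes were called lower. Lymphatic endothelium moved less, with 1 of 5 genes called, Flt4.

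Alveolar type 1 genes fell in 8 of 10, with a median of -2.49. Hopx, a homeodomain protein of type 1 cells, read 13.12, 13.28 and 13.26 in NL and 7.45 to 11.92 in LungMets, with a median of 10.67. Clic5, a chloride channel protein, fell by 3.40 ± 0.75 (SE), from 10.22, 10.90 and 10.77 to between 3.65 and 8.89. Neither gene overlapped, and LungMets 9 was the lowest in both. The 8 became 5 without NL 1, 5 without NL 2 and 4 without NL 3. Without LungMets 9 and PT 5, 9 of 10 were called and the difference of Hopx was -2.22 instead of -2.61. Ager, the receptor that marks type 1 cells most strongly, read 14.12, 13.99 and 14.04 in NL and 6.64 to 12.85 in LungMets. Its adjusted p in limma was 0.0992 with all samples and 0.00525 without these libraries, where the difference was -1.73. Ager has 2 probe sets, and the one not used here was called with all samples.

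Surfactant genes of alveolar type 2 cells depended more on LungMets 9. Of 11 genes 3 fell, Sftpb, Napsa and Abca3, with a list median of -1.90, and without LungMets 9 and PT 5 7 fell, with a median of -1.47. Sftpb, which spreads the surfactant film, read 12.14, 12.07 and 11.82 in NL and 6.87 to 10.80 in LungMets, with a median of 10.10. Its difference was -2.27 ± 0.61 (SE) with all samples and -1.91 without these libraries. Napsa, a protease that matures surfactant proteins, was not called when any 1 NL was left out. Sftpc, the most specific gene of type 2 cells, read 14.23, 14.19 and 14.29 in NL and 8.49 to 13.90 in LungMets with a median of 13.48, and it was called in neither setting. Its level in the cell line was 4.77 and 5.29. The list mean of type 2 genes was 10.22 to 11.37 in 8 of the 9 LungMets, against 12.05 to 12.09 in NL, 6.99 in LungMets 9, and 5.59 and 5.92 in the cell line.

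The airways showed the deepest single fall. Bpifa1, a secreted defence protein of the upper airways, read 11.83, 11.68 and 10.78 in NL and 2.97 to 9.70 in LungMets, with a median of 3.99. The difference was -6.96 ± 0.81 (SE), at an adjusted p of 1.92e-07 in limma, and LungMets 1 alone lay near NL, at 9.70. The other genes of the club cell list fell less, and 6 of 9 were called, with a median of -2.31, or 3 without NL 1. Cyp2f2, a cytochrome of club cells, read 13.51, 13.30 and 13.39 in NL and 4.54 to 11.96 in LungMets, and its call ended without any 1 NL, LungMets 2 or LungMets 6, at adjusted p of up to 0.103 in limma. Scgb1a1, the main secretion of club cells, read 14.34, 14.28 and 14.36 in NL and 9.19 to 14.36 in LungMets, which overlap, and it was not called. Of 13 ciliated cell genes 9 fell, with a median of -1.33. Foxj1, the switch for motile cilia, read 5.80, 6.22 and 6.63 in NL and 4.06 to 5.04 in LungMets.

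Factors that pattern the lung followed, with 9 of 14 lower and Sox9 higher. Tbx4, of the lung mesenchyme, read 8.91, 8.99 and 9.51 in NL and 3.38 to 8.15 in LungMets, and Foxf1, of the same tissue, fell by 2.66 ± 0.64 (SE). Gata6, of the alveolar epithelium, fell by 2.48 ± 0.41 (SE). Of 14 lung fibroblast genes 9 fell, with a median of -2.30. Mfap4, a protein of elastic fibres, read 11.55, 11.33 and 11.21 in NL and 5.29 to 8.72 in LungMets. Tcf21, a factor of lipid-bearing fibroblasts, fell by 3.01 ± 0.76 (SE), and Wnt2, a signal from lung mesenchyme to epithelium, by 2.81 ± 0.37 (SE). Of 12 smooth muscle genes 8 fell, among them Myh11, the smooth muscle myosin, from 8.97, 8.57 and 8.84 to between 5.10 and 6.15. The levels of Tbx4, Mfap4 and Myh11 did not overlap between the groups.

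Cardiac muscle genes fell as far as any lung list, 10 of 12, with a median of -2.69. Myh6, the atrial myosin, read 10.17, 9.76 and 10.10 in NL and 2.65 to 7.83 in LungMets, with a median of 3.70. Its difference was -5.67 ± 0.71 (SE), at an adjusted p of 5.16e-07 in limma, and LungMets 4 was the highest. Myl7, the atrial light chain, read 10.71, 10.39 and 10.25 in NL and 4.16 to 8.95 in LungMets. Tnni3, cardiac troponin I, fell by 4.51 ± 0.40 (SE). Muscle of cardiac type also sheathes the pulmonary veins of mice. The list mean was 8.13 to 8.66 in NL, 4.40 to 6.71 in LungMets and 4.51 to 5.25 in PT, and how much heart or vein tissue each NL sample held was not tested. Myh6 and Myl4 have other probe sets that were not called.

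Adipose and skeletal muscle genes also fell, but these lists varied within NL itself. The adipocyte list mean was 6.45 to 8.18 over the 3 NL and the skeletal muscle list mean 4.97 to 7.94. Adipoq, an adipocyte hormone, read 9.64, 7.79 and 8.76 in NL and 3.24 to 8.62 in LungMets, with LungMets 9 the highest. Ucp1, of brown fat, read 9.76, 4.48 and 7.08 in NL and 3.39 to 3.85 in LungMets. Acta1, the skeletal actin, read 6.79, 6.01 and 10.71 in NL. Without NL 3 the call of Acta1 ended and the skeletal muscle genes called fell from 4 to 2, with a list median of -0.27. These differences among NL stand beside the losses, and their part in them was not tested. Among all losses 5 were also lower than PT, Car3, Adipoq, Fabp4, Sfrp2 and Esr1, and the first 3 of these are abundant in fat.

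Of the lymphoid lists only that of NK cells held many calls beside the 9.58% of all genes called lower. Of 8 NK cell genes 4 fell, Gzma, Ncr1, Gzmb and Nkg7, and without NL 1 only Gzma and Ncr1 did. Gzma, a granzyme, read 10.61, 10.34 and 9.82 in NL and 7.05 to 9.24 in LungMets, with no overlap. Of 10 B cell genes Ighm fell, though not without NL 3. Of 11 probe sets of Ighm 10 were not called, nor was the mean of them all. Of 9 T cell genes Cd2 fell, while Cd3e differed by 0.10, at a level of 5.06 to 5.74 in LungMets. The shares of these 2 lists were near that of all genes, and so was that of antigen presentation. Of its 15 genes Cd74 and Tap2 fell, neither of which was called without NL 1, and Cd74 was not called without NL 2. None of the neutrophil, plasma cell and mast cell genes was called in limma, with list medians of -0.14, -0.98 and -0.18. The platelet genes Ppbp and Pf4 were called lower, yet LungMets 7 read 9.33 for Ppbp, above the 6.71, 6.90 and 6.67 of NL, and both calls ended without any 1 NL. Of the mesothelial list Upk3b, Lrrn4 and Msln fell, the last of them not without NL 1.

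Beside NL, the PT samples give the level of the same genes in tumor outside the lung. Of the losses 416 were still higher in LungMets than in PT, 5 were lower and 1322 were not called, again with the LungMets samples in both comparisons. Hopx lay 3.38 ± 0.51 (SE) above PT, Sftpb 2.66 ± 0.41 (SE) and Tbx4 3.07 ± 0.45 (SE). Pecam1 lay 1.71 ± 0.36 (SE) above PT, at an adjusted p of 0.00186 in limma. The median difference from PT was 2.65 for alveolar type 1, 3.19 for alveolar type 2, 3.68 for club cells and 1.64 for endothelium. LungMets thus lay between NL and PT in these lists. The muscle lists lay nearer to PT. For cardiac muscle the median difference from PT was 0.29 and for smooth muscle 0.40, beside -0.02 over all genes.

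The 9 LungMets differed among themselves mainly along the same lists. LungMets 7 was the highest in alveolar type 1 (9.70), type 2 (11.37), endothelium (8.89) and mesothelium (7.08), and the lowest in mitosis (7.53), DNA replication (7.71), ribosome biogenesis (8.51) and cartilage (5.33). LungMets 9 was the lowest in alveolar type 1, type 2, club and ciliated cells and endothelium, and the highest in cartilage (7.21), stromal matrix (10.90), adipocytes (6.69) and B cells (7.61). LungMets 4 had the highest cardiac list, 6.71. The monocyte and macrophage list was even, from 8.08 to 8.56, and so was that of amino acid genes, from 7.89 to 8.25, both above every NL. Every LungMets also lay above every NL in the list means of mitosis, DNA replication, ribosome biogenesis, glycolysis and hypoxia, and cartilage matrix. The same held for basal mammary epithelium, inflammation and interferon response, the last of them barely, at 7.54 against 7.53.

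**Figure D5:**
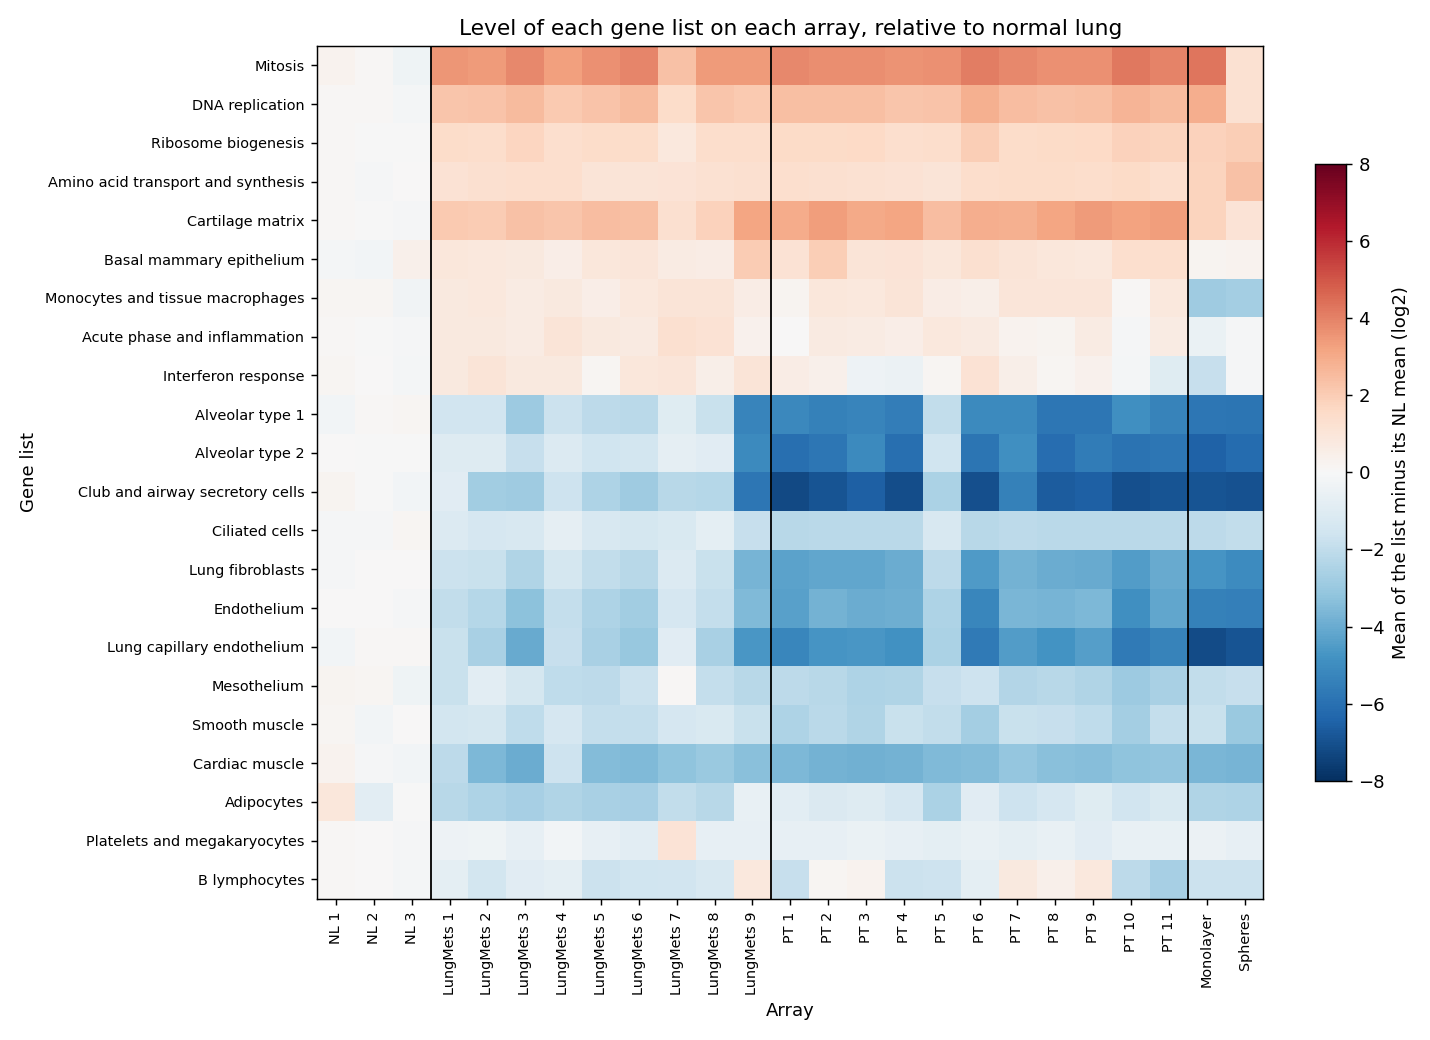
Mean of 22 lists (1 per line) on 25 arrays of NL, LungMets, PT and the cell line, as the difference from the mean of NL in log2 units, shown as colour. LungMets 9 has the low lung lists of the PT arrays, PT 5 has lung lists like those of LungMets, and LungMets 7 is the LungMets nearest to NL in the alveolar and endothelial lists.

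Many named genes have several probe sets. Of 73 such genes named by rule all probe sets gave the same call in 32, and at least 1 was not called in 41, with 0 opposite calls. Of 308 list members with several probe sets 1 had an opposite call, Pes1 of ribosome biogenesis. Values above are those of the probe set with the highest mean and hold for it. The date labels of the arrays could bear on the levels too. NL carried a date label of its own, so date and tissue cannot be told apart. LungMets carried 2, and with 4 LungMets of the first alone the counts were 1273 gains and 1669 losses, and with 5 of the second 1137 and 1682.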

How the data were processed

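The authors normalized the Affymetrix arrays by RMA in Partek Genomic Suite 6.6 and deposited 1 log2 signal per probe set and array; the RMA settings and the scanner files were not used here. The median of an array was 5.00 to 5.18. Of 45101 probe sets, 34958 name 1 gene in the platform annotation, 932 several and 9211 none that was listed. RefSeq held the gene ID of 34754 of the 34958, and 0 symbols changed. For each of 18194 genes the probe set used was the one brightest on average in the 26 tissue arrays, and 9012 genes had several.

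Groups came from the source names. 1 mean per group was fitted over the 26 tissue arrays in limma 3.58.1 (R 4.3.3; lmFit, eBayes), with Benjamini-Hochberg adjustment over all genes. A call needs an adjusted p below 0.05 and a fold above 2, the thresholds of the design text of the series. The script was tested on simulated data. Plots used matplotlib 3.10.9 (Python 3.11.15). The 46 lists, 28 of cell types and 18 of gene groups, cover 618 genes, of which 581 were measured. Members and lists were chosen with earlier results of these data known. Genes named by rule were the 12 largest calls per direction among those in which every LungMets lay beyond every NL. Added to these were up to 4 calls per list, up to 10 gains above both NL and PT and 6 of each other class. Other named genes, such as Vegfa, Csf1r, Mrc1, Acan, Matn1, Ager, Sftpc, Scgb1a1, Cdc20, Mki67, Foxm1, Foxa1 and Cd44, were chosen after their values were seen. Promoter windows are those of RefSeq on GRCm38.p6.

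The alternatives were 2-group fits, other fold limits, the mean of all probe sets and genes above the median level. Arrays were also centred, quantile-normalized again or weighted. Further fits took the date label as a random block or each date alone, the replicate number as a block, or the methods' ANOVA. The cell line margin was narrowed and widened, and each cell line sample was taken alone. Single arrays, or LungMets 9 and PT 5, were left out. Leaving out PT 5 alone, and both in a fit of 2 groups, was chosen after seeing the data. The number of arrays limits the precision.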

Additional observations from a re-analysis of the deposited data

Results flagged for a closer look

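Among the 9 LungMets, 1 sample lay far from the others, by Dixon's gap test, in 15 of 46 list means and in 26 of 150 named genes. Chance gives about 1 in 20. LungMets 9 was that sample in 9 lists and 13 genes, and LungMets 7 in 6 lists and 9 genes.

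In LungMets 9 the lung lists were low. The list mean was 5.42 for alveolar type 1, 6.99 for alveolar type 2, 5.61 for club cells and 6.23 for lung fibroblasts, against lowest values of 7.77, 10.22, 8.53 and 7.54 in the other 8. Of lung epithelial genes it read 4.32 for Cldn18, 7.45 for Hopx, 6.87 for Sftpb, 4.54 for Cyp2f2, 6.05 for Tppp3 and 4.02 for Dynlrb2. Of lung mesenchymal and matrix genes it read 3.38 for Tbx4, 5.29 for Mfap4, 4.56 for Npnt and 4.00 for Tcf21. Its lists of other cells were high, at 7.61 for B lymphocytes, 7.30 for plasma cells, 6.69 for adipocytes, 5.44 for skeletal muscle and 6.88 for basal mammary epithelium. The same held for Adipoq at 8.62, Acta1 at 6.83 and Krt14 at 10.35.

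In LungMets 7 the lists of growth were low, at 7.71 for DNA replication, 7.53 for mitosis and 8.51 for ribosome biogenesis. It was also the lowest for Birc5 at 8.39, Tk1 at 7.31, Mcm6 at 8.79, Cdk1 at 8.89 and Dkc1 at 9.41. Its blood cell lists were high, at 7.22 for neutrophils, 7.06 for platelets and 6.40 for erythroid cells, against highest values of 6.27, 5.74 and 5.24 in the other 8. The platelet genes Ppbp and Pf4 read 9.33 and 10.08 there. Wnt2, at 7.34, and the mesothelial gene Lrrn4, at 7.20, were also highest in LungMets 7.

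The remaining 4 values fell to 3 samples. LungMets 1 read 9.70 for Bpifa1 against 2.97 to 4.12 in the other 8. LungMets 4 read 5.14 for Myoz2 and 4.61 for Smpx, both genes of striated muscle. LungMets 8 read 9.42 for the complement gene C1qc, against 8.46 to 8.94 in the others.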

How the results depend on the processing

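No gene named by rule changed direction under any alternative that was run, and the direction of the other calls was not followed. Of 46 list medians 8 changed sign under at least 1, those of platelets, erythroid cells, neuroendocrine cells, lymphatic endothelium, the stromal matrix, matrix proteases, the Wnt pathway and the Y-linked genes, each of a size up to 0.34 with all samples. Without a fold limit, 4329 genes were higher and 4079 lower in LungMets than in NL, 5303 and 4598 in PT than in NL, and 1642 and 1117 in LungMets than in PT, with 4039 gains in PT and 1266 also in both cell line samples. At a fold of 1.5, gains numbered 2441 and losses 2957, PT had 3222 genes above NL, LungMets had 1008 above and 177 below PT, and 2334 gains were in PT and 1119 also in both cell line samples. With only the genes above the median level, 926 genes were lower in LungMets and 1326 in PT than in NL, and 329 were higher in LungMets than in PT. The 54 genes lower in LungMets than in PT became 149 with array weights, 19 with the second date label alone, 82 with the replicate block, 116 without LungMets 9 and PT 5, 82 without PT 5 alone and 111 without both in a fit of 2 groups. With a cell line margin of 2 log2 units, 218 gains were in PT and both cell line samples.

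Leaving out 1 array at a time gave 1163 to 1323 gains, 1612 to 1834 losses, 1722 to 1799 genes above and 2292 to 2410 below NL in PT, and 434 to 590 above and 40 to 86 below PT in LungMets. The gains in PT were then 1123 to 1278, and those also in both cell line samples 715 to 793. Of the calls of named genes over all alternatives, 3952 kept their side of the threshold and 196 did not. Of the 196, 66 came from leaving out 1 NL, 45 from leaving out 1 LungMets, 19 and 17 from keeping LungMets of the first and of the second date label alone and the rest from other settings.

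Gains were 41.2% of the calls, 47.0% after quantile normalization once more and 52.5% among genes above the median level. The replicate numbers did not pair the samples of LungMets and NL, with correlations of -0.06, -0.04 and -0.09, and the replicate block gave 1392 gains and 1937 losses, of which 1194 and 1699 were called without it. For LungMets and PT the correlations ran from -0.23 to 0.48, and 1 of 9 LungMets correlated best with its own number. The block moved the gains lower than PT from 18 to 28. The replicate numbers were therefore not taken as pairs in either comparison.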

Other observations

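The 33 gains called neither in PT nor high in both cell line samples included genes of myeloid cells, named here after their values were seen. Fcgr1, the high-affinity receptor of immunoglobulin G, read 6.38, 6.21 and 5.66 in NL and 6.25 to 8.34 in LungMets, so that the groups overlapped. It lay 1.35 ± 0.31 (SE) above NL in LungMets and 0.76 above NL in PT. Ms4a6d, a membrane protein of macrophages, read 7.14, 7.45 and 7.13 in NL, 7.85 to 9.08 in LungMets and 3.19 and 3.41 in the cell line. The distance from PT was small for such genes, 0.58 for Fcgr1 and 0.53 for Ms4a6d, and neither was called between LungMets and PT in limma.

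A few other lists changed in single members, to be read beside the 9.58% of all genes called lower. Of 15 basement membrane genes Lama3 and Lama4 fell and none rose, with a median of -0.41. Lama3, a laminin chain of epithelial attachment, read 9.45, 9.35 and 8.96 in NL and 4.60 to 7.60 in LungMets, a difference of -2.81 ± 0.48 (SE). Of 10 imprinted and oncofetal genes Cdkn1c, Plagl1 and Grb10 fell, with a median of -0.58. With the mean of all probe sets of a gene, Lama4, Plagl1 and Grb10 were not called. Of 3 probe sets of Plagl1 2 were not called. Cdkn1c, an inhibitor of the cell cycle, read 8.41, 8.39 and 8.37 in NL and 5.19 to 7.85 in LungMets. The levels of Lama3 and Cdkn1c did not overlap between the groups. Of 5 erythroid genes Alas2, the erythroid enzyme of heme synthesis, fell by 2.59 ± 0.79 (SE), but it was not called without NL 2, and LungMets 7 read 10.76, above every NL. Of 5 neuroendocrine genes Resp18 fell by 1.07, from a level of 4.03 to 4.36 in NL, and did not pass the fold of 2 without NL 1.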
